A study of Mus musculus with 24 samples.

Results

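The level of each gene in SEG cells at day 3 was set against the level that the Erg effect and the Sox17 effect would give if they simply added on the log2 scale. The contrast was SEG minus Erg minus Sox17 plus control, and it used 12 of the 24 libraries of the series, 3 for each condition. It was computed for all 13964 genes that passed a filter on low counts. A value of 0 means that both fold changes multiplied, a positive value places SEG above the added effects and a negative value places it below. The value is called the departure here. Its error is an approximate standard error, namely the size of the departure divided by the square root of the F value of its test.

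All libraries came from mouse heart cells grown in the endothelial medium EGM2 and taken at day 3. The groups were SEG cells, Erg cells and Sox17 cells, which the labels class as iEC, and control cells, which they class as fibroblasts. What SEG stands for is not spelled out there, so a further factor in it is possible, and how the factors were brought in is not given. Whether the 3 libraries of a condition are separate cultures or animals is not stated either. The p-values then reflect only how these libraries vary, which can be technical variation.

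ERG is an ETS family transcription factor that binds DNA around the core GGAA and keeps endothelial junction and identity genes active. SOX17 belongs to the F group of SOX factors, which bind cores such as ACAAT and ACAAAG, and it acts in arterial endothelium and in endoderm. ETS and SOX factors are known to occupy some endothelial enhancers together.

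Total counts per library ran from 18794422 to 37355910, and ribosomal protein genes took 3.73% to 4.70% of them. Sox17 averaged 981 ± 43.7 CPM in SEG cells (CPM, counts scaled to a common library size) and 1571 ± 63.8 CPM in Sox17 cells (SD, n = 3 each), with 15 counts over the 3 Erg libraries and 0 over the 3 control libraries. Erg averaged 1234 ± 18.0 CPM in SEG cells and 7071 ± 31.5 CPM in Erg cells, with 4 counts over the Sox17 libraries and 2 over the control libraries. SEG cells thus held 0.625 times the Sox17 level of Sox17 cells and 0.175 times the Erg level of Erg cells. A lower factor level in SEG cells cannot be told apart from the combination of the factors in any departure below. Counts per gene do not separate an introduced copy from the cells' own.

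Departures were common in both directions. By edgeR's quasi-likelihood test at an adjusted p under 0.05, 8265 genes departed from the added effects (59.2% of those tested), of which 4122 lay above (29.5%) and 4143 below (29.7%). A test for departures beyond 1.5-fold called 1629 above (11.7%) and 1784 below (12.8%). The median departure of all tested genes was −0.016, and the 25th and 75th percentiles were −0.50 and 0.45. A fit of all 24 libraries, in which day 7 shares the estimate of the spread, called 2696 above and 2630 below.

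Departures were also read on the arithmetic scale, where the added level is Erg plus Sox17 minus control in CPM. For a gene that both factors raise or both lower, the multiplied level exceeds this sum by construction, and for a gene they move in opposite ways it is smaller. That fixed the side of the arithmetic sum for 2640 of the 4122 genes above and for 1553 of the 4143 genes below. Where the side was free, the SEG mean exceeded the sum for 1394 of 1482 genes above and did not exceed it for 2544 of 2590 genes below. The direction of a departure does not give the rank of the SEG level. Among the genes above, the highest mean of the 4 groups was that of SEG for 1510 (36.6%) and that of control for 1917 (46.5%), against 20.6% and 22.9% of all tested genes. Among the genes below, the highest mean was that of Erg cells for 2585 (62.4%) and that of Sox17 cells for 1326 (32.0%), against 32.0% and 24.5% of all tested genes. All 3 SEG libraries lay below the other 9 for 655 of the genes below (15.8%), against 7.24% of all tested genes. These ranks come from the same libraries as the contrast and are given as a description.

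**Figure D1:**
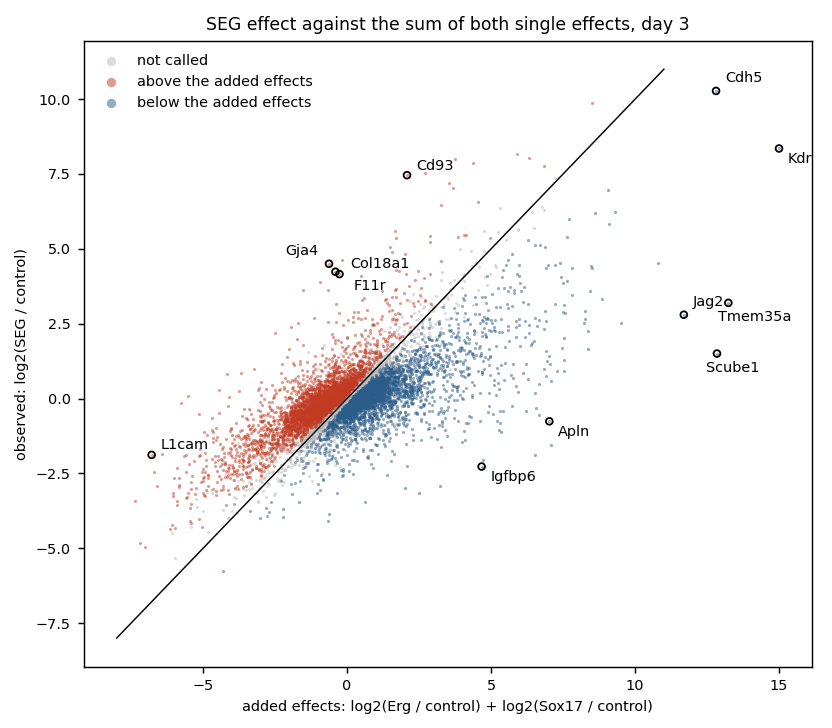
Each point is a gene with at least 10 counts in each day 3 group; the x axis is the sum of the Erg and Sox17 log2 fold changes over control, the y axis the SEG log2 fold change over control, and the line marks equality (red above, blue below, grey not called). Cd93, Gja4, Col18a1 and F11r sit far above the line and Kdr, Tmem35a, Scube1, Apln and Igfbp6 far below it; the control libraries enter both axes.

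One form among the genes above was a gene that was low with each factor alone and high in SEG cells. All 3 SEG libraries exceeded the other 9 for 953 of the genes above (23.1%), against 1436 of all tested genes (10.3%). That count also takes in genes high with a single factor, such as Igfbp3 with 1813 CPM in Sox17 cells. The 10 largest positive departures were taken among well-counted genes, which here means at least 10 counts summed over the libraries of each group. Of these 10 genes, 9 were low with each factor alone and high in SEG cells. They were Cd93, Scin, Gja4, Tspan13, Tro, Cd38, Col18a1, Ildr2 and F11r.

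Gja4 (chromosome 4, 127311421 to 127314039, minus strand of mm10) encodes connexin 37, a gap junction protein of arterial endothelium. It had 78.03, 66.7 and 71.4 CPM in SEG cells, 1.41, 1.81 and 1.72 CPM in Erg cells, 4.02, 3.02 and 4.901 CPM in Sox17 cells, and 2.89, 3.15 and 3.503 CPM in control cells. Every SEG library lay far above the rest, and the Erg libraries lay below the control libraries. The added level was 2.06 CPM, which the SEG mean exceeded 35.1 times (departure 5.13 ± 0.24, adjusted p = 4.74e-11).

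Cd93 (chromosome 2, 148436640 to 148443563, minus strand), a C-type lectin receptor of endothelial cells that takes part in vessel sprouting, had the largest positive departure of these genes. It had 473, 383 and 468 CPM in SEG cells, 16.1, 16.8 and 18.6 CPM in Erg cells, 1.47, 1.64 and 1.54 CPM in Sox17 cells, and 2.24, 2.08 and 3.203 CPM in control cells. The Sox17 libraries lay below the control libraries, the Erg libraries above them and the SEG libraries far above all others. The departure was 5.37 ± 0.26 (adjusted p = 7.04e-11).

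Col18a1 (chromosome 10, 77052178 to 77166548, minus strand) encodes the basement membrane collagen from which endostatin is cut. It had 807, 716 and 805 CPM in SEG cells, 39.5, 38.1 and 35.8 CPM in Erg cells, 31.4, 33.1 and 37.4 CPM in Sox17 cells, and 39.4, 41.1 and 43.2 CPM in control cells. The Erg libraries overlapped control, the Sox17 libraries lay below it, and the SEG mean was 25.1 times the added level of 31.1 CPM (departure 4.65 ± 0.10, adjusted p = 8.1e-15).

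F11r (chromosome 1, 171437535 to 171464603, plus strand), the junctional adhesion molecule JAM-A, had 69.2 to 70.7 CPM in SEG cells, 1.98 to 2.82 CPM in Erg cells, 4.901 to 5.54 CPM in Sox17 cells and 3.303 to 4.36 CPM in control cells (departure 4.47 ± 0.18). Cd38, an NAD-consuming surface enzyme, averaged 144 ± 6.86 CPM in SEG cells, 10.3 ± 1.16 CPM in Erg cells, 17.4 ± 1.58 CPM in Sox17 cells and 31.8 ± 2.54 CPM in control cells (departure 4.66 ± 0.12). For Cd38 each factor alone lay below control while SEG lay above it. Ildr2, a membrane protein of the immunoglobulin family, averaged 74.99 ± 5.06 CPM in SEG cells, 21.98 ± 0.807 CPM in Erg cells, 6.17 ± 1.07 CPM in Sox17 cells and 41.7 ± 4.41 CPM in control cells, again with each factor below control (departure 4.50 ± 0.14).

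Tspan13, a tetraspanin membrane protein, averaged 71.1 ± 4.96 CPM in SEG cells, 0.2098 ± 0.0683 CPM in Erg cells, 4.598 ± 0.451 CPM in Sox17 cells and 0.386 ± 0.106 CPM in control cells (departure 4.87 ± 0.43). Tro, trophinin of the melanoma antigen family, averaged 121 ± 6.94 CPM in SEG cells, 2.16 ± 0.376 CPM in Erg cells, 15.8 ± 1.02 CPM in Sox17 cells and 8.11 ± 0.186 CPM in control cells (departure 4.83 ± 0.13). Scin, an actin-severing protein of the gelsolin family, averaged 26.97 ± 1.399 CPM in SEG cells and reached at most 3.13 CPM in any other library (departure 5.22 ± 0.26). In all 3 genes the Erg libraries lay below the control libraries or overlapped them.

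The remaining gene of these 10 had another form. L1cam, a cell adhesion molecule best known from neurons, had 4.43, 4.204 and 5.43 CPM in SEG cells, 4.18, 5.27 and 5.48 CPM in Erg cells, 0.551, 0.747 and 0.332 CPM in Sox17 cells, and 19.4, 14.6 and 17.8 CPM in control cells. SEG cells lay below control and overlapped Erg cells, and the departure of 4.82 ± 0.27 arose against an added level of 0.156 CPM.

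**Figure D2:**
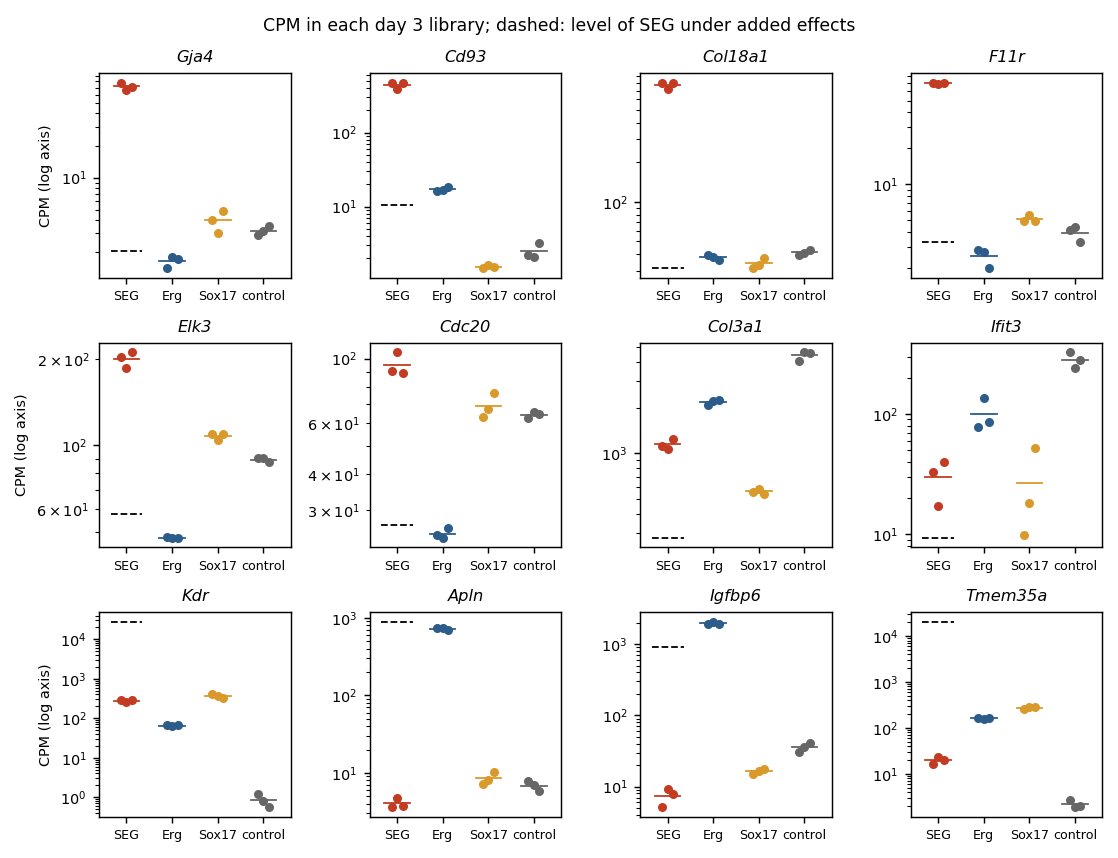
CPM of 12 genes in each day 3 library on a log axis, with a bar at the mean of each group and a dashed line at the level that added log2 effects give. The SEG points lie above all others for Gja4, Cd93, Col18a1, F11r, Elk3 and Cdc20, within or between the other groups for Col3a1, Ifit3, Kdr and Tmem35a, and below all others for Apln and Igfbp6.

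Of 12 listed endothelial junction genes, 11 were tested, and 3 lay above (F11r, Pecam1 and Jam2), 6 below and 2 did not pass, against 29.5% above and 29.7% below among all tested genes. Cdh5, the adherens junction cadherin of endothelium, had 629, 602 and 653 CPM in SEG cells, 9.82, 12.8 and 10.5 CPM in Erg cells, 177, 166 and 158 CPM in Sox17 cells, and 0.382, 0.339 and 0.801 CPM in control cells. SEG cells held the highest level without overlap and more than the arithmetic sum of 178 CPM, yet less than the 3640.3 CPM of multiplied fold changes (departure −2.52 ± 0.25, adjusted p = 3.05e-07). Pecam1, a junctional adhesion molecule, averaged 67.8 ± 5.39 CPM in SEG cells, 2.57 ± 0.0945 CPM in Erg cells, 2.03 ± 0.316 CPM in Sox17 cells and 0.257 ± 0.152 CPM in control cells, and lay above the added effects (1.74 ± 0.45, adjusted p = 0.00374). Without control replicate 3 the Pecam1 departure was 1.27 and was not called. Esam, another adhesion molecule of endothelium, averaged 12.8 ± 1.62 CPM in SEG cells, 84.6 ± 3.29 CPM in Erg cells, 0.214 ± 0.155 CPM in Sox17 cells and 0.1504 ± 0.0794 CPM in control cells, and lay below (−3.35 ± 0.59).

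Among 27 tested of 28 listed endothelial surface and signalling genes, 6 lay above, 10 lay below and 11 did not pass, against 29.5% and 29.7% of all tested genes. All 3 SEG libraries exceeded the other 9 for 11 of the 27, against 10.3% of all tested genes. Cd34, a sialomucin of endothelial and stem cells, averaged 5.48 ± 0.395 CPM in SEG cells, 13.99 ± 0.469 CPM in Erg cells, 1.25 ± 0.334 CPM in Sox17 cells and 16.2 ± 0.722 CPM in control cells, and lay above while control was highest (2.34 ± 0.18). Emcn, the endothelial sialomucin endomucin, averaged 219 ± 3.05 CPM in SEG cells, 4.63 ± 0.853 CPM in Erg cells, 4.41 ± 0.281 CPM in Sox17 cells and 0.236 ± 0.0477 CPM in control cells (1.36 ± 0.40), a departure that was 1.21 and not called without control replicate 2. Plvap, a protein of endothelial fenestrae, averaged 0.549 ± 0.336 CPM in SEG cells, 39.3 ± 3.01 CPM in Erg cells, 0.344 ± 0.203 CPM in Sox17 cells and 1.34 ± 0.404 CPM in control cells, and lay below (−4.21 ± 0.62).

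The VEGF, Tie and apelin list had 7 above, 9 below and 2 not passing among 18 tested of 20, on the same background. Kdr (chromosome 5, 75932827 to 75978458, minus strand), the main receptor of VEGF, had 291, 253 and 297 CPM in SEG cells, 65.8, 64.6 and 65.7 CPM in Erg cells, 401, 369 and 335 CPM in Sox17 cells, and 1.201, 0.823 and 0.5505 CPM in control cells. Each factor alone lay far above control, while SEG cells lay between the Erg and the Sox17 libraries (departure −6.65 ± 0.17, adjusted p = 7.95e-14). The added level of 28041 CPM is a product of 2 large folds over a control level near 1 CPM, and SEG also lay below the arithmetic sum of 433 CPM. Flt1, a further VEGF receptor, averaged 25.2 ± 2.54 CPM in SEG cells, 203 ± 4.399 CPM in Erg cells, 4.65 ± 0.648 CPM in Sox17 cells and 11.2 ± 1.51 CPM in control cells (−1.72 ± 0.15).

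The Tie receptors lay above. Tie1 had 224, 201 and 221 CPM in SEG cells, 1.02, 1.02 and 1.004 CPM in Erg cells, 1.84, 1.21 and 1.79 CPM in Sox17 cells, and 4 counts in all in control cells (departure 3.26 ± 1.05, adjusted p = 0.0142). Its value hung on those few counts, since it was 1.98 and not called without control replicate 1, and 3.88 without control replicate 2. Tek, the angiopoietin receptor, averaged 37.6 ± 2.13 CPM in SEG cells, 13.6 ± 0.528 CPM in Erg cells, 18.4 ± 1.504 CPM in Sox17 cells and 17.9 ± 1.13 CPM in control cells, so that SEG lay above control, while the Sox17 libraries overlapped control and the Erg libraries lay below it (1.42 ± 0.11). Esm1, a proteoglycan of tip cells, averaged 80.3 ± 1.99 CPM in SEG cells and reached at most 8.64 CPM in any other library (4.03 ± 0.26).

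Of 17 listed arterial genes, 16 were tested, with 9 above, 3 below and 4 not passing, against 29.5% above and 29.7% below among all tested genes. The median departure was 0.97 over the 14 members with at least 10 counts in each group. All 3 SEG libraries exceeded the other 9 for 10 of the 16, against 10.3% of all tested genes. Cxcr4, the receptor of CXCL12, averaged 21.2 ± 2.88 CPM in SEG cells and reached at most 1.29 CPM in any other library. Its departure of 3.45 ± 0.77 was 4.31 without Erg replicate 1 and 2.86 without Erg replicate 3. Igfbp3, a binding protein of insulin-like growth factors, averaged 2342 ± 102 CPM in SEG cells, 25.7 ± 2.07 CPM in Erg cells, 1813 ± 30.4 CPM in Sox17 cells and 52.8 ± 1.73 CPM in control cells (1.41 ± 0.07).

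Gja5, the arterial connexin 40, had 582, 579 and 582 CPM in SEG cells, 0.395, 0.634 and 1.23 CPM in Erg cells, 4.46, 4.74 and 4.69 CPM in Sox17 cells, and 2 counts in all in control cells. The SEG libraries lay far above the rest, but with so few control counts no departure is sized, and the test did not pass (adjusted p = 0.165), though DESeq2 called it (adjusted p = 0.0446). Efnb2, the arterial ephrin, averaged 275 ± 20.5 CPM in SEG cells, 18.5 ± 2.27 CPM in Erg cells, 221 ± 5.41 CPM in Sox17 cells and 17.7 ± 3.07 CPM in control cells, with a departure of 0.26 ± 0.14 that did not pass (adjusted p = 0.12). It was called at 0.27 with no filter on low counts, and at 0.32, 0.38 and 0.36 without SEG replicate 2, Erg replicate 2 or control replicate 2. Bmx, a cytoplasmic tyrosine kinase of arteries, averaged 13.6 ± 1.09 CPM in SEG cells, 2.402 ± 0.223 CPM in Erg cells, 144 ± 16.6 CPM in Sox17 cells and 5.08 ± 0.306 CPM in control cells, and lay below (−2.34 ± 0.18).

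Notch is a pathway in which ligands on a cell lead to the cleavage of receptors on its neighbour, which switches on repressors of the Hey and Hes families. Of 19 listed Notch genes, 15 were tested, with 6 above, 5 below and 4 not passing, near the share of all tested genes in each direction. Among the ligands, Dll4 had 102, 99.6 and 96.0 CPM in SEG cells, 1.13, 0.878 and 0.516 CPM in Erg cells, 0.289, 0.144 and 0.0415 CPM in Sox17 cells, and 4 counts in all in control cells. It lay above with a departure of 5.69 ± 1.41 (adjusted p = 0.00262), which was 4.49 and not called without control replicate 2, and 6.45 without Sox17 replicate 1.

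Jag2, also a Notch ligand, had 1.05, 0.996 and 1.34 CPM in SEG cells, 126, 128 and 124 CPM in Erg cells, 0.499, 0.862 and 0.706 CPM in Sox17 cells, and 10 counts in all in control cells. It was high with Erg alone and close to the Sox17 level in SEG cells (departure −8.76 ± 0.53, and −11.23 without control replicate 2). Jag1, another ligand, averaged 471 ± 9.93 CPM in SEG cells, 84.8 ± 2.53 CPM in Erg cells, 179 ± 8.31 CPM in Sox17 cells and 48.3 ± 1.16 CPM in control cells, a departure of 0.58 ± 0.06 that was not called in the fit of all 24 libraries (adjusted p = 0.14). The receptor Notch4, largely endothelial, averaged 322 ± 10.6 CPM in SEG cells, 64.9 ± 6.78 CPM in Erg cells, 209 ± 7.99 CPM in Sox17 cells and 132 ± 5.12 CPM in control cells, and lay above (1.66 ± 0.09).

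Of the targets, Hey1 and Hey2 lay below although SEG held their highest level, Heyl did not pass and Hes1 lay above. Hey1 had 43.1, 37.7 and 38.1 CPM in SEG cells, 5.70, 4.197 and 3.53 CPM in Erg cells, 19.97, 14.8 and 18.1 CPM in Sox17 cells, and 0.328, 0.678 and 0.851 CPM in control cells. The SEG libraries exceeded all others and the arithmetic sum of 21.5 CPM, and fell short of the 128 CPM of multiplied folds (−1.61 ± 0.33, adjusted p = 0.000626). Hey2 averaged 5.49 ± 0.538 CPM in SEG cells, 2.83 ± 0.422 CPM in Erg cells, 2.72 ± 0.213 CPM in Sox17 cells and 0.248 ± 0.168 CPM in control cells (−2.45 ± 0.37, and −3.11 without control replicate 2).

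Of 26 listed endothelial transcription factors, 23 were tested, with 10 above, 5 below and 8 not passing. The shares of all tested genes were 29.5% above and 29.7% below. Lmo2, a LIM domain partner of blood and endothelial factors, averaged 36.1 ± 2.43 CPM in SEG cells and reached at most 5.27 CPM in any other library (2.81 ± 0.22). Elk3, an ETS family repressor, had 203, 186 and 211 CPM in SEG cells, 47.9, 47.9 and 47.7 CPM in Erg cells, 109.9, 105 and 109 CPM in Sox17 cells, and 90.3, 90.2 and 87.4 CPM in control cells. Erg cells lay below control, and SEG cells lay above every other library (1.79 ± 0.07, adjusted p = 6.53e-12). Gata2 averaged 5.77 ± 0.9499 CPM in SEG cells, 40.4 ± 2.07 CPM in Erg cells, 7.63 ± 0.4797 CPM in Sox17 cells and 9.46 ± 0.434 CPM in control cells (−2.51 ± 0.14), and Gata3 lay below as well (−3.46 ± 0.13). Sox7, an F group SOX factor, averaged 6.13 ± 0.999 CPM in SEG cells, 2.72 ± 0.421 CPM in Erg cells, 2.45 ± 0.516 CPM in Sox17 cells and 1.39 ± 0.148 CPM in control cells, with a departure of 0.33 ± 0.29 that did not pass (adjusted p = 0.342).

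Of the 10 largest negative departures among well-counted genes, 6 were high in Erg cells alone, namely Apln, Jag2, Igfbp6, Stac2, Pianp and Cngb1. Apln (chromosome X, 48025146 to 48034853, minus strand) encodes apelin, a peptide ligand made by tip cells. It had 3.59, 4.79 and 3.80 CPM in SEG cells, 729.7, 744 and 687 CPM in Erg cells, 7.19, 8.13 and 10.3 CPM in Sox17 cells, and 7.86, 6.97 and 5.81 CPM in control cells. The SEG libraries lay below all others, the control libraries included, and their mean was 215 times under the added level (−7.75 ± 0.18, adjusted p = 1.87e-14).

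Igfbp6 (chromosome 15, 102144362 to 102149511, plus strand), a binding protein that prefers IGF-II, had 5.08, 9.22 and 7.96 CPM in SEG cells, 1935, 2071 and 1939 CPM in Erg cells, 15.2, 16.6 and 17.7 CPM in Sox17 cells, and 30.6, 36.2 and 40.7 CPM in control cells. SEG cells again had the lowest level of the 4 groups without overlap (−6.90 ± 0.18). Stac2, an adaptor of calcium channels, averaged 0.172 ± 0.115 CPM in SEG cells, 48.1 ± 1.84 CPM in Erg cells, 0.733 ± 0.162 CPM in Sox17 cells and 0.508 ± 0.124 CPM in control cells (−8.72 ± 0.38). The SEG libraries held only 12 counts of Stac2 and 10 of Pianp in all. Their departures ran from −9.25 to −8.34 and from −8.92 to −8.08 when 1 library was left out. Pianp averaged 0.144 ± 0.0928 CPM in SEG cells, 65.9 ± 1.09 CPM in Erg cells, 0.387 ± 0.105 CPM in Sox17 cells and 0.526 ± 0.0675 CPM in control cells (−8.40 ± 0.43), and Cngb1, a cyclic nucleotide-gated channel subunit, averaged 0.393 ± 0.09003 CPM in SEG cells, 61.9 ± 2.24 CPM in Erg cells, 0.532 ± 0.188 CPM in Sox17 cells and 0.572 ± 0.414 CPM in control cells (−7.17 ± 0.51, and −7.92 without control replicate 3).

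Of 12 listed venous and lymphatic genes, 9 were tested, with 2 above, 5 below and 2 not passing. The shares of all tested genes were 29.5% above and 29.7% below. In this list 3 tested members had under 10 counts in at least 1 group. Lyve1, the hyaluronan receptor of lymphatic endothelium, averaged 3.43 ± 0.357 CPM in SEG cells, 142 ± 6.597 CPM in Erg cells, 0.624 ± 0.294 CPM in Sox17 cells and 1.85 ± 0.315 CPM in control cells (−3.85 ± 0.31). Nr2f2, the venous transcription factor COUP-TFII, averaged 55.9 ± 5.45 CPM in SEG cells, 31.3 ± 0.220 CPM in Erg cells, 23.8 ± 0.738 CPM in Sox17 cells and 25.2 ± 1.15 CPM in control cells, and lay above (0.92 ± 0.10). The Erg level of SEG cells, 0.175 times that of Erg cells, stands beside the genes that were high in Erg cells alone, and its part in them was not tested.

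A gene high with Sox17 alone was Adcy5, an adenylyl cyclase. It had 1.34, 0.922 and 1.01 CPM in SEG cells, 5.42, 4.83 and 5.22 CPM in Erg cells, 104, 107 and 105 CPM in Sox17 cells, and 4.09, 4.31 and 5.25 CPM in control cells. The SEG libraries lay below all others (−6.79 ± 0.16).

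In a further form each factor alone was high and SEG cells were low. Tmem35a (chromosome X, 134295225 to 134305969, plus strand), a chaperone of nicotinic receptor assembly, had 16.2, 23.05 and 19.97 CPM in SEG cells, 163, 158 and 164 CPM in Erg cells, 259.8, 280 and 292 CPM in Sox17 cells, and 2.62, 1.84 and 2.002 CPM in control cells. SEG cells lay below each single factor and above control (−10.04 ± 0.16, adjusted p = 2.27e-16). Scube1 (chromosome 15, 83604999 to 83725021, minus strand), a secreted protein with EGF repeats found in endothelium and platelets, had the most negative departure of these genes. It had 1.44, 1.66 and 1.63 CPM in SEG cells, 104, 105 and 112 CPM in Erg cells, 23.5, 20.2 and 20.1 CPM in Sox17 cells, and 0.437, 0.532 and 0.701 CPM in control cells. SEG cells stood nearer to control than to either factor (−11.31 ± 0.16). Fam189a2 averaged 3.87 ± 0.297 CPM in SEG cells, 22.4 ± 0.765 CPM in Erg cells, 14.7 ± 0.455 CPM in Sox17 cells and 0.6703 ± 0.429 CPM in control cells (−6.96 ± 0.24, and −7.57 without control replicate 3).

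The promoters of 4 genes are printed because they stand for both directions, Gja4 and Dll4 above, Kdr and Apln below. Each is the 250 bases before the RefSeq start on GRCm38.p6, read on the gene's own strand, with matches to GGAA (the ETS core) and to ACAAT or ACAAAG (SOX cores) on either strand in capitals. They lie at chr4:127314040-127314289 (minus strand), chr2:119325534-119325783 (plus strand), chr5:75978456-75978705 (minus strand) and chrX:48034854-48035103 (minus strand).
Gja4: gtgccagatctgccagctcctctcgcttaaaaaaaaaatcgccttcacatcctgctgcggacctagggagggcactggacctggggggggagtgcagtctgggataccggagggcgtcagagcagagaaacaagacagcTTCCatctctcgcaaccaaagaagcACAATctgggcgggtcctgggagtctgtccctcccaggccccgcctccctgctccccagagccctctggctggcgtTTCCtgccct
Dll4: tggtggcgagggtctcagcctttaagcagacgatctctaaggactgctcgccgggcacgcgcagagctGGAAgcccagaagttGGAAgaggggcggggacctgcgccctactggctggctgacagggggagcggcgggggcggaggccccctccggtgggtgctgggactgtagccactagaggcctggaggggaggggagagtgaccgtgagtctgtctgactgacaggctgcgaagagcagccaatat
Kdr: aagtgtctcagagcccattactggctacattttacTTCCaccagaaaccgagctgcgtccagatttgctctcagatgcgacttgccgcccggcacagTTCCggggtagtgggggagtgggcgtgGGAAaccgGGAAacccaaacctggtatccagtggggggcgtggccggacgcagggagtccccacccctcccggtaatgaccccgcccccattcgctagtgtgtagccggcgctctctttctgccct
Apln: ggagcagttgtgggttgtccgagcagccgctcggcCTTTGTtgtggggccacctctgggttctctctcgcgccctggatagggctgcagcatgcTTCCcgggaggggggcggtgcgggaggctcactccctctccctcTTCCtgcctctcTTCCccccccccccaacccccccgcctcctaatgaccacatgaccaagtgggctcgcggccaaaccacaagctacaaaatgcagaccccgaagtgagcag

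Gja4 held 2 GGAA matches and 1 ACAAT match, Dll4 2 GGAA matches, Kdr 4 GGAA matches, and Apln 3 GGAA matches and 1 ACAAAG match. Such letters were about as common in every set of promoters of this length. GGAA occurred in 93.3% of 4093 promoters of genes above, in 91.9% of 4164 promoters of genes below and in 93.1% of the 13598 promoters used for tested genes. Either SOX core occurred in 27.3%, 27.1% and 27.8% of those sets. Promoters on chromosome 18 were left out, and promoters were used for 10616 of the 13964 tested genes.

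Another form among the genes above was a gene highest in control cells, for which SEG stood higher than the product of the single effects. Cell cycle genes were mostly of this form. All 27 listed were tested, with 22 above, 1 below and 4 not passing, a median departure of 1.04, and control cells highest for 19. Among all tested genes 29.5% lay above and control was highest for 22.9%. Mki67, a proliferation marker, had 49.1, 52.7 and 60.5 CPM in SEG cells, 18.9, 25.2 and 27.8 CPM in Erg cells, 73.9, 71.8 and 56.9 CPM in Sox17 cells, and 78.3, 78.5 and 74.2 CPM in control cells. SEG cells lay above Erg cells and below control without overlap (1.34 ± 0.16, adjusted p = 3.82e-06). Bub1b, a mitotic checkpoint kinase, averaged 19.6 ± 0.905 CPM in SEG cells, 10.8 ± 1.04 CPM in Erg cells, 20.4 ± 0.269 CPM in Sox17 cells and 35.7 ± 2.74 CPM in control cells (1.65 ± 0.11).

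Cdc20, an activator of the anaphase-promoting complex, averaged 95.02 ± 9.001 CPM in SEG cells, 24.9 ± 1.05 CPM in Erg cells, 68.7 ± 6.72 CPM in Sox17 cells and 63.99 ± 1.65 CPM in control cells (1.83 ± 0.11), so that SEG cells lay above control. Pcna, the sliding clamp of replication, averaged 76.6 ± 2.31 CPM in SEG cells, 130 ± 5.61 CPM in Erg cells, 99.6 ± 0.285 CPM in Sox17 cells and 100.4 ± 2.87 CPM in control cells and was the member below (−0.75 ± 0.06). Of 10 tested CDK inhibitors and D cyclins, 3 lay above, 5 below and 2 did not pass. The shares of all tested genes were 29.5% above and 29.7% below. Ccnd1, cyclin D1, averaged 188 ± 1.81 CPM in SEG cells, 2484 ± 30.7 CPM in Erg cells, 187 ± 7.06 CPM in Sox17 cells and 731 ± 42.3 CPM in control cells, and lay below (−1.76 ± 0.06).

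Of 23 tested interferon response genes, 16 lay above, none lay below and 7 did not pass, with a median departure of 1.01 and control cells highest for 21, against 29.5% above and 22.9% with control highest among all tested genes. Their summed level ran from 579 to 963 CPM in SEG cells, 748 to 1033 CPM in Erg cells, 620 to 873 CPM in Sox17 cells and 1705 to 2045 CPM in control cells. Ifit3, an antiviral effector, had 32.8, 17.1 and 39.7 CPM in SEG cells, 77.7, 134 and 84.9 CPM in Erg cells, 9.82, 18.3 and 51.7 CPM in Sox17 cells, and 327, 242 and 278 CPM in control cells. The libraries of each factor spread widely, and the departure of 1.74 ± 0.58 was 2.61 without Sox17 replicate 3 and 1.46, not called, without SEG replicate 3. DESeq2 did not call it either. Ifit3 is also uncertain because it shares sequence with Ifit3b.

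Of 18 tested sterol and fatty acid synthesis genes, 16 lay above (29.5% of all tested genes), none below and 2 did not pass, with a median of 0.52 and 5 above beyond 1.5-fold (11.7% of all tested genes). Control cells were highest for 15. Scd1, a fatty acid desaturase, averaged 651 ± 37.02 CPM in SEG cells, 411 ± 8.77 CPM in Erg cells, 703 ± 72.8 CPM in Sox17 cells and 892 ± 30.2 CPM in control cells (1.01 ± 0.09).

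All 33 listed fibroblast genes were tested, with 20 above, 9 below and 4 not passing, a median departure of 0.86 and control cells highest for 18, on the same background. Col3a1, a fibrillar collagen, had 1119, 1070.3 and 1242 CPM in SEG cells, 2079, 2206 and 2258 CPM in Erg cells, 559.5, 585 and 537 CPM in Sox17 cells, and 4033, 4642 and 4589.6 CPM in control cells. SEG cells lay between Sox17 and Erg cells and below control (2.05 ± 0.09, adjusted p = 2.29e-11). Pdgfra, a growth factor receptor that marks fibroblasts, averaged 109.6 ± 7.93 CPM in SEG cells, 194 ± 8.41 CPM in Erg cells, 161 ± 19.1 CPM in Sox17 cells and 624 ± 10.4 CPM in control cells. Its SEG level was the lowest of the 4 groups and still above the added level of 50.1 CPM (1.13 ± 0.10).

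Vcan, the proteoglycan versican, averaged 1572 ± 275 CPM in SEG cells, 170.2 ± 5.87 CPM in Erg cells, 763 ± 150.3 CPM in Sox17 cells and 487 ± 32.9 CPM in control cells (2.56 ± 0.18). Col6a3, a chain of collagen VI, averaged 54.1 ± 10.5 CPM in SEG cells, 2777 ± 15.5 CPM in Erg cells, 27.7 ± 3.32 CPM in Sox17 cells and 291 ± 30.4 CPM in control cells, and lay below (−2.30 ± 0.16). Dcn, the proteoglycan decorin, averaged 158 ± 9.32 CPM in SEG cells, 1076 ± 46.9 CPM in Erg cells, 106 ± 5.46 CPM in Sox17 cells and 669 ± 51.5 CPM in control cells, with a departure of −0.11 ± 0.09 that did not pass (adjusted p = 0.289). Fewer cells of a type and less RNA per cell cannot be told apart in these bulk libraries.

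**Figure D3:**
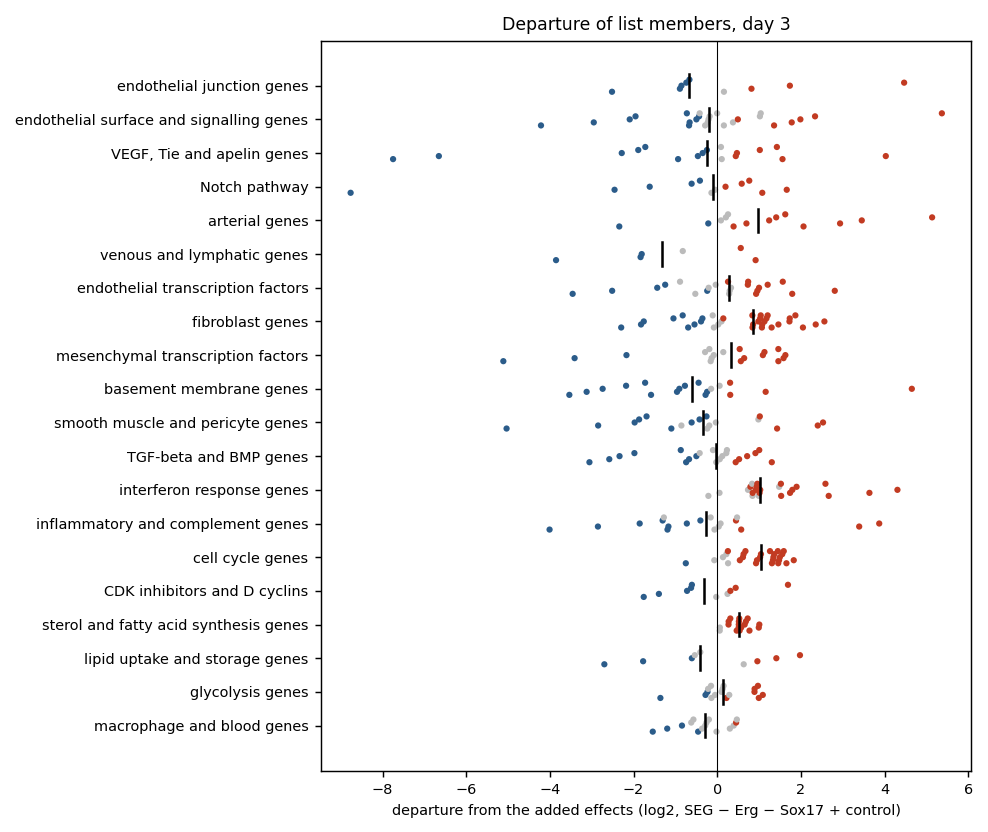
Departure at day 3 (x axis, log2) of each member of a gene list with at least 10 counts in each group, for lists of at least 9 tested genes; red points lie above the added effects, blue below and grey were not called, and the black bar is the median of the points shown. The medians are 1.04 for cell cycle, 1.01 for interferon response and −0.61 for basement membrane genes, and endothelial lists spread on both sides.

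Of 18 tested basement membrane genes, 12 lay below, 4 above and 2 did not pass, against 29.7% below and 29.5% above among all tested genes, with a median of −0.61. Lama1, a laminin chain, averaged 8.57 ± 0.601 CPM in SEG cells, 1.93 ± 0.188 CPM in Erg cells, 115 ± 5.15 CPM in Sox17 cells and 2.97 ± 0.411 CPM in control cells (−3.12 ± 0.17). Of 19 tested smooth muscle and pericyte genes, 4 lay above, 9 below and 6 did not pass. Tagln, an actin-binding smooth muscle protein, averaged 416 ± 81.6 CPM in SEG cells, 414 ± 17.5 CPM in Erg cells, 834 ± 158 CPM in Sox17 cells and 227 ± 15.9 CPM in control cells (−1.87 ± 0.18). Acta2, smooth muscle actin, averaged 685 ± 115 CPM in SEG cells, 139 ± 6.08 CPM in Erg cells, 1389.8 ± 282 CPM in Sox17 cells and 276 ± 19.96 CPM in control cells, with a departure of −0.03 ± 0.18 that did not pass (adjusted p = 0.888).

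Markers of several cell types had different levels in the groups. The summed level of 7 macrophage markers was 144 to 154 CPM in SEG cells, 144 to 159 CPM in Erg cells, 71.1 to 85.0 CPM in Sox17 cells and 98.0 to 99.7 CPM in control cells. Lyz2 alone made up most of each sum. It averaged 136 CPM in SEG cells, 124 CPM in Erg cells, 65.7 CPM in Sox17 cells and 82.4 CPM in control cells. Cd68 averaged 3.61, 12.3, 4.33 and 5.10 CPM in the same order, lowest in SEG cells. Of 15 tested macrophage and blood genes, 1 lay above, 4 below and 10 did not pass. The shares of all tested genes were 29.5% above and 29.7% below. The 5 cardiomyocyte markers summed to 5.48 to 6.71 CPM in SEG cells, 11.1 to 12.6 CPM in Erg cells, 9.50 to 12.5 CPM in Sox17 cells and 51.4 to 55.3 CPM in control cells, and 4 of them were under 1 CPM in every library. The 8 endothelial markers summed to 1387 to 1513 CPM in SEG cells, 179 to 185 CPM in Erg cells, 517 to 607 CPM in Sox17 cells and 18.8 to 20.8 CPM in control cells. The 8 fibroblast markers summed to 17234 to 18310 CPM in SEG cells, 19340 to 20085 CPM in Erg cells and 15616 to 15757 CPM in Sox17 cells, against 28839 to 31430 CPM in control cells. Col1a1 gave a large part of the sum, with a mean of 8391 CPM in SEG cells. SEG cells held 0.672 times the control level of Col1a1 and 0.678 times that of Postn. They held less of Col3a1 (0.259 times control), Dcn (0.236) and Pdgfra (0.176). The 7 smooth muscle and pericyte markers summed to 1024 to 1365 CPM in SEG cells, 547 to 591 CPM in Erg cells, 1801 to 2689 CPM in Sox17 cells and 472 to 543 CPM in control cells. Acta2 and Tagln made up most of each sum. Cspg4, another of the 7, was highest in SEG cells. It averaged 33.6 ± 5.16 CPM there, 5.48 ± 0.731 CPM in Erg cells, 8.66 ± 0.991 CPM in Sox17 cells and 8.13 ± 1.47 CPM in control cells. The 6 epithelial and mesothelial markers summed to 1.84 to 1.99 CPM in SEG cells, 4.62 to 6.88 CPM in Erg cells, 2.73 to 3.86 CPM in Sox17 cells and 7.85 to 8.19 CPM in control cells. The part of other cells in the departures was not tested.

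Whether the departure differed at day 7 was tested in a fit of all 24 libraries. It differed for 2259 of 14804 genes (15.3%), with 1151 higher at day 3 (7.77%) and 1108 lower (7.48%). The count rested on the day 7 libraries: it was 3485 without replicate 1 of Sox17 at day 7, and 5011 without replicate 1 of both Sox17 and SEG at day 7. In those 2 libraries ribosomal protein genes took 7.76% and 5.40% of counts, against 3.14% to 4.96% in the other day 7 libraries. Of the 20 largest departures, 7 differed between the days in the fit of all 24 libraries, and all 20 kept their sign. Without those 2 libraries, Cd38 (difference 0.65, adjusted p = 0.00971) and Igfbp6 (−1.18, adjusted p = 0.00149) were called as well (edgeR).

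Some genes crossed the line of added effects between the days. Mki67 had a departure of 1.34 at day 3 and −1.43 at day 7 (difference 2.76, adjusted p = 2.31e-05, edgeR). Hey2 had −2.45 at day 3 and 1.45 at day 7 (difference −3.93), and Flt1 −1.72 and 1.48 (difference −3.24). Tspan13 (4.87 at day 3 and 0.74 at day 7) and Pecam1 (1.74 and 4.88) kept a positive departure, although its size differed between the days. Gja4 (4.42 at day 7), Cd93 (4.92), F11r (4.28), Apln (−8.23) and Tmem35a (−10.02) kept their sign, and no difference between the days was called for them.

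**Figure D4:**
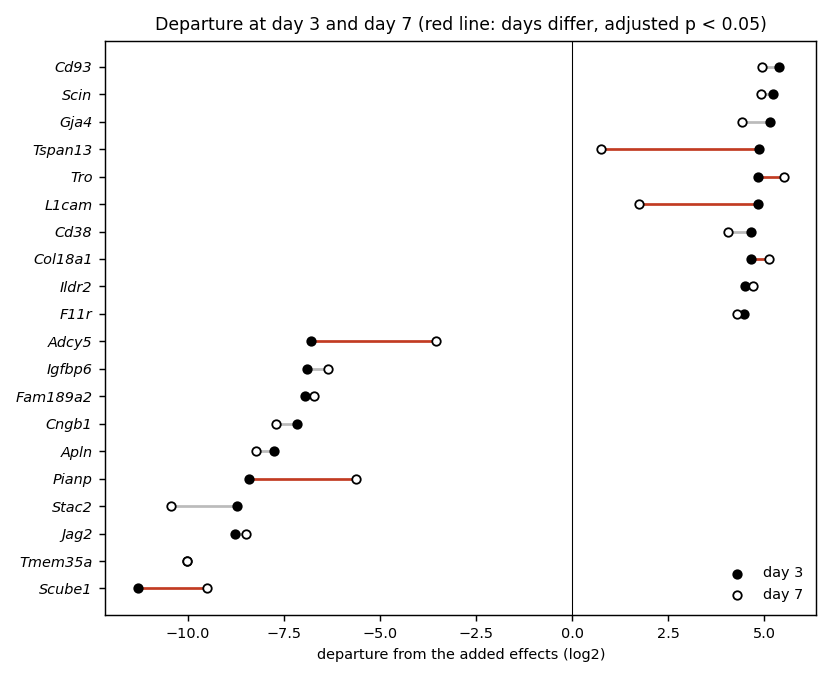
Departure (x axis, log2) of the 10 largest positive and 10 largest negative departures of day 3 (filled circles), with the value of the same gene at day 7 (open circles). Red lines join the 7 genes whose departure differed between the days, and all 20 genes keep their sign at day 7.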

How the data were processed

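The table the authors deposited holds whole-number counts per Ensembl gene, not normalized, for 35727 genes in 24 libraries; 35422 genes matched a name. Salmon, DESeq2 and build mm10 are listed per the submitters' processing notes. Their versions, the annotation, the strand setting and whether estimates were rounded are not stated, so overlapping genes and near-identical relatives, such as Ifit3 or Oas1a, are uncertain.

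R 4.3.3 with edgeR 4.0.16 was used. Genes passed filterByExpr (minimum count 10), libraries were scaled by TMM, and the day 3 libraries were fitted by quasi-likelihood with a mean per condition. The contrast was tested 2-sided, with Benjamini-Hochberg adjustment over all tested genes. The prior count was 0.125. Levels in CPM use TMM-scaled library sizes. No departure is sized where a group held 3 or fewer counts in all, and counting error is all that this floor covers. Gene coordinates are from GENCODE M21 and promoters from RefSeq.

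Named genes are both factors; the 10 largest called departures each way with 10 CPM or more in the highest group, 10 counts or more in each group and the same sign in all 81 library combinations; the 5 genes highest in SEG among called genes under 10 counts in control; up to 2 called members each way of 24 gene lists; and a set of endothelial, fibroblast and other markers. All members and lists were chosen with earlier results of these data known. Alternatives were RLE size factors, no filter, a replicate block, all 24 libraries, DESeq2 1.42.0, a test beyond 1.5-fold, a prior count of 2 and leaving out each library. On simulated day 3 counts of 13663 genes, 95 of 100 genes with a 2-fold and 99 of 100 with a 4-fold departure were called, with 17 false calls. The simulation gave each gene the same mean in every group and changed only the SEG level of the chosen genes. It therefore does not cover genes with large single effects or few control counts. Counts of every replicate pair differed by more than sampling noise.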

Additional observations from a re-analysis of the deposited data

Results flagged for a closer look

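For 22 genes among the 20 largest departures and the marker set, the departure differed between day 3 and day 7 by the test of that difference in the fit of all 24 libraries (edgeR). The values are day 3 minus day 7, on the log2 scale. Among genes above the added effects at day 3, Tspan13 differed by 4.10 (adjusted p = 3.31e-06) and L1cam by 3.07 (adjusted p = 0.00475), while Tro differed by −0.70 (adjusted p = 0.0206) and Col18a1 by −0.50 (adjusted p = 0.0342). Among genes far below, Adcy5 differed by −3.25 (adjusted p = 3.22e-06), Pianp by −2.80 (adjusted p = 0.00373) and Scube1 by −1.83 (adjusted p = 0.0277).

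Endothelial genes of the marker set went both ways. Those with the higher departure at day 7 differed by −2.13 for Kdr, −3.24 for Flt1, −1.30 for Tek, −3.16 for Pecam1, −3.93 for Hey2, −1.53 for Efnb2 and −3.03 for Lyve1. Igfbp3 (1.61) and Pdgfb, a growth factor that recruits pericytes (2.31), had the higher departure at day 3, as did Notch4 (1.31) and Esm1 (adjusted p = 0.00341, edgeR) outside that set. No difference was called for Cdh5, Emcn, Tie1, Gja4 and Dll4. Fibroblast genes Col1a1 (−1.51) and Dcn (−1.40) and the complement gene C3 (−2.16) had the higher departure at day 7. The smooth muscle genes Acta2 (2.83) and Tagln (2.44) and the proliferation marker Mki67 (2.76) had the higher departure at day 3.

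Without replicate 1 of Sox17 and of SEG at day 7, the libraries with high ribosomal protein shares, all 22 kept their sign and their call. Further genes were called in that fit, Cd38 and Igfbp6 of the largest departures among them. The difference was then 4.12 for Tspan13, −3.27 for Adcy5, −3.11 for Pecam1, −3.84 for Hey2 and 2.79 for Mki67.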

How the results depend on the processing

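The counts of genes above and below were 4122 and 4143. They were 2696 and 2630 in a fit of all 24 libraries (2672 and 2559 of them called the same way in the fit of day 3 alone; the cause was not tested) and 1629 and 1784 in the test beyond 1.5-fold, which is stricter by construction. They were 4196 and 4079 with RLE size factors, 4302 and 4077 with no filter, 4113 and 4011 with DESeq2, and 3919 to 4209 and 3744 to 4210 when 1 library was left out. No gene called in 1 direction was called in the other under these settings. The count of genes that differ between the days ran from 1840 to 3485 when 1 library was left out and was 5011 without both outlying day 7 libraries; the cause was not tested. Same-numbered libraries correlated in their deviations from the group means by −0.10 to 0.06, and 3 of 12 libraries correlated best with their own number, so the numbers were not taken to pair the samples. With a replicate block the counts were 4008 above, 4031 below and 2243 for the days. Over the named genes and alternatives, no called departure changed sign; Acta2, never called, ran from −0.18 to 0.11 when 1 library was left out. The test beyond 1.5-fold did not call C3, Cdkn2d, Emcn, Ephb4, Erg, Ifit3, Jag1, Lyz2, Pdgfb, Pkm, Postn and Robo4, which the main fit called. Under the other alternatives 32 values lost their call, in 12 genes, and 5 gained one. Pkm lost it under 11 alternatives, Robo4 under 6, Erg under 5 and Ifit3 under 2. Pdgfb (−1.28 ± 0.35) lost it without control replicate 3, Jag1, Postn and Cdkn2d in the fit of all 24 libraries, and Dll4, Tie1, Pecam1 and Emcn without 1 control library each. Depth limits the departures of endothelial genes with few control counts.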

Other observations

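Of 19 tested mesenchymal transcription factors, 9 lay above, 3 below and 7 did not pass. All tested genes had 29.5% above and 29.7% below, the background for each list of this section. The T-box factor Tbx3, a repressor, averaged 2.11 ± 0.460 CPM in SEG cells, 42.9 ± 1.14 CPM in Erg cells, 2.14 ± 0.267 CPM in Sox17 cells and 1.30 ± 0.332 CPM in control cells (−5.11 ± 0.23), and Tbx2 lay below as well (−3.41 ± 0.12). Tbx20, a T-box factor of the heart, averaged 376 ± 43.6 CPM in SEG cells, 842 ± 18.3 CPM in Erg cells, 186 ± 35.9 CPM in Sox17 cells and 1248 ± 22.5 CPM in control cells, and lay above (1.58 ± 0.15). Snai2, a repressor of epithelial genes, averaged 11.7 ± 0.308 CPM in SEG cells, 18.9 ± 2.198 CPM in Erg cells, 5.97 ± 0.879 CPM in Sox17 cells and 30.1 ± 2.16 CPM in control cells (1.63 ± 0.15). Among 21 tested TGF-beta and BMP genes, 6 lay above, 8 below and 7 did not pass. Gdf15, a stress-induced ligand of that family, averaged 11.1 ± 0.531 CPM in SEG cells, 361 ± 8.19 CPM in Erg cells, 6.14 ± 0.416 CPM in Sox17 cells and 24.2 ± 2.49 CPM in control cells (−3.05 ± 0.11).

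Of 19 tested inflammatory and complement genes, 4 lay above, 8 below and 7 did not pass. For this list and those that follow, the background was again 29.5% above and 29.7% below. The acute phase lipocalin Lcn2 averaged 0.459 ± 0.177 CPM in SEG cells, 101 ± 3.44 CPM in Erg cells, 0.379 ± 0.199 CPM in Sox17 cells and 4.99 ± 0.602 CPM in control cells (−4.01 ± 0.44). Of 9 tested lipid uptake and storage genes, 3 lay above, 3 below and 3 did not pass. Fabp4, a fatty acid binding protein of fat and capillary cells, averaged 373 ± 16.5 CPM in SEG cells, 61.4 ± 1.76 CPM in Erg cells, 56.9 ± 5.21 CPM in Sox17 cells and 36.9 ± 0.878 CPM in control cells (1.98 ± 0.09), and Lpl, lipoprotein lipase, averaged 110.1 ± 4.35 CPM in SEG cells, 1268 ± 57.2 CPM in Erg cells, 353 ± 9.36 CPM in Sox17 cells and 627 ± 34.7 CPM in control cells (−2.70 ± 0.07). Of 17 tested glycolysis genes, 6 lay above, 3 below and 8 did not pass. Of 5 tested epithelial and mesothelial genes, 1 lay above and 1 below, and of 2 tested cardiomyocyte genes 1 lay above. Of 5 tested Schwann and neuronal genes, 2 lay above and 2 below.

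Some genes near 0 in control cells are given by level alone. Adgrl4, an adhesion receptor of endothelium, averaged 51.9 ± 3.96 CPM in SEG cells and reached at most 0.6299 CPM in any other library. Robo4, a guidance receptor of endothelium, averaged 20.2 ± 0.324 CPM in SEG cells, 13.97 ± 0.971 CPM in Erg cells, 0.0877 ± 0.0361 CPM in Sox17 cells and 0 ± 0 CPM in control cells. Reln, a secreted glycoprotein, averaged 0.0897 ± 0.0345 CPM in SEG cells, 16.9 ± 0.742 CPM in Erg cells, 20.4 ± 2.96 CPM in Sox17 cells and 0 ± 0 CPM in control cells, so that the gene was high with each factor alone and close to 0 in SEG cells. Sox18, an F group SOX factor, averaged 1.77 ± 0.689 CPM in SEG cells, 28.1 ± 1.86 CPM in Erg cells, 0.0138 ± 0.02398 CPM in Sox17 cells and 0.0167 ± 0.0289 CPM in control cells.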
